A study of Mus musculus with 21 samples.

Results

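Naive mouse embryonic stem cells of a line that lacks MLL3 and carries floxed MLL4 were compared with naive wild-type cells, region by region, for the enhancer mark H3K4me1. The comparison is the level in the floxed line minus the level in wild type. It draws on 4 of the 21 samples of the series, 2 H3K4me1 CUT&RUN libraries per group, and covers the 186824 regions with levels among the 186826 that the authors' table lists. CUT&RUN uses an antibody to bring a nuclease to chromatin that carries its target, and the released fragments are sequenced. The wild-type group (genotype WT) is labelled as the embryonic stem cell line R1. The floxed group has the genotype MLL3KO_MLL4fl, so MLL4 is still encoded by its floxed alleles, and no line label. The number of clones is not given for either group. Line of origin and the loss of MLL3 therefore cannot be told apart here. Besides these, the text uses formative wild-type and formative floxed cells, collected 63 h after withdrawal of LIF and 2i. It also uses naive cells of genotype MLL3KO_MLL4KO (DKO, no line label) and of genotype MLL3CD_MLL4CD (dCD, labelled R1, where CD stands for catalytically dead alleles). Formative DKO and formative dCD cells, also collected 63 h after withdrawal, are used in places.

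H3K4me1 marks enhancers and the flanks of active promoters. The Kmt2c and Kmt2d genes encode MLL3 and MLL4, catalytic subunits of complexes that place the mark at enhancers, and their functions overlap in embryonic stem cells. The naive state, held by LIF and 2 kinase inhibitors, resembles the pre-implantation epiblast, and formative cells are the next step towards lineage choice.

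The table gives 1 value per group, the authors' pooled log2 level, so no spread between libraries can be computed and no test was possible. Differences are described by their size on the log2 scale, where 1 is a 2-fold difference. Levels were also converted back to normalized reads per region, with a median of 39.2 in naive wild type, 37.1 in naive floxed cells, 31.6 in naive DKO and 31.5 in naive dCD cells. A region with an average of at least 32 normalized reads over the compared pair was called well covered. In bulk chromatin, a lower level in all cells and the mark in fewer cells cannot be told apart. Regions are named by the nearest gene, which need not be their target, and coordinates are those of mm10. The antibody's catalogue number differs between fields of the labels (ab8895 and ab4729), so the mark is named as labelled. Near 6 genes that mark pluripotent cells the lines differed by less than 1.5-fold. The mean over the regions within 50 kb of Nanog differed by 0.02, of Sox2 by 0.14, of Tfcp2l1 by 0.04, of Esrrb by −0.15, and of Zfp42, on chromosome 8, whose median was −0.45, by −0.27. Pou5f1, the gene of OCT4, differed by 0.44.

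For the 2 genes with the strongest well-covered region in each direction, the sequence of that region is shown so that the regions the comparison turned on can be seen. The middle 300 bases of each are given on the plus strand of GRCm38 (mm10), with CG dinucleotides, the sites of DNA methylation, in capitals. The first lies at chr11:88968688-88968987, the second at chr14:69661223-69661522, the third at chr13:66299481-66299780 and the fourth at chr13:65934100-65934399.
Elobl, higher: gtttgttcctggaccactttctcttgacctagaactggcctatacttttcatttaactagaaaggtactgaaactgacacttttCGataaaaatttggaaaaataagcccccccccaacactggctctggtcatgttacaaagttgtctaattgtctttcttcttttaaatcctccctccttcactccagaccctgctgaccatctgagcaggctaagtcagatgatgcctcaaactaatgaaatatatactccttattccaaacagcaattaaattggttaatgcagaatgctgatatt
Mir6950, higher: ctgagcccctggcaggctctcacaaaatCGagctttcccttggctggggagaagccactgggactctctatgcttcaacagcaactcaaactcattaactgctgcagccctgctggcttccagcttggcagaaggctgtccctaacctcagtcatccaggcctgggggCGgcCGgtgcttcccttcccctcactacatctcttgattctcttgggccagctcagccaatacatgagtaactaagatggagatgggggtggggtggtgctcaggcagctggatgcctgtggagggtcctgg
2410141K09Rik, lower: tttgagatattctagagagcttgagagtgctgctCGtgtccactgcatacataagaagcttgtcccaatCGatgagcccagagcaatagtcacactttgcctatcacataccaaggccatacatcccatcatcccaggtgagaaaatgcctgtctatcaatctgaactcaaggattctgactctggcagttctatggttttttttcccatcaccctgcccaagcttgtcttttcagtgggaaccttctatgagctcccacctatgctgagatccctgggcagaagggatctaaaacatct
Gm10324, lower: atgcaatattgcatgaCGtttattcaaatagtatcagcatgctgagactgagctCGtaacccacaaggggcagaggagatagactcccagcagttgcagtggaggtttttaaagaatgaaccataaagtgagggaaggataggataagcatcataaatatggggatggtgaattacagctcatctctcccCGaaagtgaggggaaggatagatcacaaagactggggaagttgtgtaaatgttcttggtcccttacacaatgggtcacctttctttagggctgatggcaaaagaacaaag
These windows hold 1, 3, 2 and 3 CG dinucleotides in that order, and repeats mask 32.3%, 9.33%, 6.33% and 23.7% of their bases. Most bases of each window are unmasked.

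Most regions had similar levels in both lines. The median difference was −0.03, with quartiles at −0.36 and 0.23, and 9797 regions (5.24% of all) differed by 2-fold or more. Of these, 1614 (0.864% of all regions) were higher in the floxed line and 8183 (4.38%) were lower, so 83.5% of them were lower. That split depends on the scaling between columns. Centring each column on its own median raised every difference by 0.14 and turned the median of all regions to 0.11, and the lower share became 65.1%. Among the 107902 well-covered regions, 400 (0.371%) were higher and 1643 (1.52%) lower. At 4-fold, 66 regions (0.0353%) were higher and 494 (0.264%) lower, and at 8-fold 4 (0.00214%) were higher and 92 (0.0492%) lower. No region was listed at 0 in naive wild type, and 4 were in naive floxed cells.

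The highest difference was at an intergenic region just upstream of Elobl, an elongin B-like gene (chr11:88968167-88969508). It held 31.9 normalized reads in naive wild type and 329 in naive floxed cells, with 21.8 in naive dCD and 291 in naive DKO cells. In the formative state the values were 28.3 in wild type and 359 in the floxed line. The naive difference of 3.35 between floxed and wild-type cells was the reason for naming the region. In the other columns listed, the groups without an R1 label were also high and the R1 groups low. The adjoining region, nearest 2210409E12Rik (chr11:88969877-88970802), had the same pattern, with 27.4 reads in naive wild type, 230 in naive floxed, 16.5 in naive dCD and 215 in naive DKO cells. Its formative values were 21.6 in wild type and 145 in the floxed line, and its naive difference was 3.06. These regions lie side by side, under 1 kb apart, and are not independent.

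At other higher regions formative wild-type cells had the mark as well. The intronic region near Anxa3, an annexin gene (chr5:96729689-96731263), held 11.03 reads in naive wild type, 46.7 in formative wild type, and 69.9 and 76.9 in naive and formative floxed cells. In an intron of Ctbp2, which encodes a transcriptional corepressor (chr7:133040470-133042592), the same 4 values were 9.996, 42.7, 64.98 and 75.1. The naive differences were 2.61 and 2.60, and the formative ones 0.72 and 0.80. Formative wild type was above naive wild type at both regions, and the gap between the lines was wider in the naive state. Both regions were picked for their wide naive gap, which favours a narrower one in formative cells, and whether the states differ was not tested. Naive dCD held 12.7 and 15.9 reads and naive DKO 48.6 and 51.4. Formative dCD held 12.6 and 23.4, and formative DKO 48.7 and 71.2. Regions near the microRNA gene Mir6950 (chr14:69660914-69661830, 7.47 reads in naive wild type, 32.2 in formative wild type, 66.9 and 65.6 in floxed cells) and near the acyl-CoA thioesterase gene Acot10 (chr15:19994311-19995706, 9.36, 32.8, 55.4 and 42.1) likewise had formative wild type between naive wild type and the floxed values. Of the 8 columns, the floxed naive value was the highest at Mir6950 and Acot10. Naive DKO held 23.9 and 13.4 reads at these regions, and naive dCD 11.7 and 5.10.

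The other higher regions among the 10 named lay near 4921531P14Rik (2.29), Erdr1 (2.27), Uggt2, a glycoprotein folding sensor of the endoplasmic reticulum (2.23), and Gphn (2.21). Gphn encodes gephyrin, the scaffold of inhibitory synapses, and its intronic region (chr12:78350630-78351312) went from 26.3 reads in naive wild type to 122 in naive floxed cells, beside 56.4 in dCD and 176 in DKO cells. Erdr1 lies in the pseudoautosomal region that the X and Y chromosomes share, and its region (chrY:90777678-90778488) is 80.1% masked repeat. It held 16.4 reads in naive wild type, 80.0 in naive floxed, 5.75 in naive dCD and 13.1 in naive DKO cells, so DKO was below wild type in this region. Summed over the 13 regions within 50 kb of Erdr1, DKO was instead the highest naive group. It held 1039 reads there, beside 809 in naive floxed, 337 in naive wild type and 283 in naive dCD cells. How the authors placed reads that map to several copies is not given in the sources used here. The same limit holds for Rn45s, the ribosomal RNA precursor, which was picked after its values were seen. Its region (chr17:39842989-39848841) held 645 reads in naive wild type, 2993 in naive floxed, 1197 in naive dCD and 3987 in naive DKO cells.

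**Figure D1:**
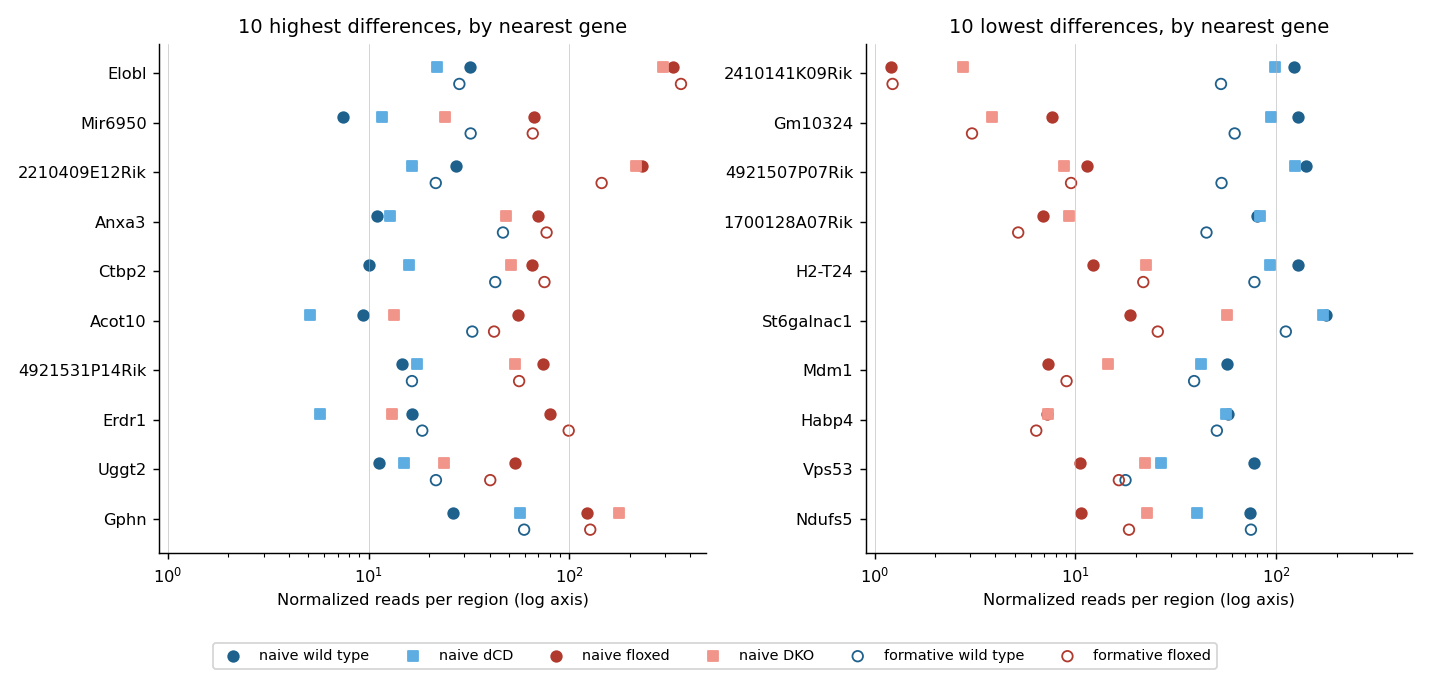
Normalized H3K4me1 reads per region (log axis) at the 10 highest and 10 lowest well-covered differences, 1 row per nearest gene. Filled symbols are naive and open symbols formative cells. At Elobl naive floxed and DKO cells hold 329 and 291 reads and naive wild-type and dCD cells 31.9 and 21.8, and at Gm10324 this order is turned round.

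Among well-covered regions the lowest difference was at an intergenic region nearest 2410141K09Rik (chr13:66298660-66300600), with 123 reads in naive wild type and 1.21 in naive floxed cells. It held 98.5 in naive dCD and 2.77 in naive DKO cells, and 53.2 and 1.23 in formative wild-type and floxed cells. The naive difference of −5.97 rests on about 1 read in the floxed line, so its size is imprecise, but the gap between the high and low columns was wide in both states. At Gm10324 (chr13:65932770-65935728) naive wild type held 127.99 reads, naive floxed 7.69, naive dCD 94.7 and naive DKO 3.83, and the difference was −3.78. Near 4921507P07Rik (chr6:50607883-50609888) the values were 140, 11.4, 124 and 8.77 in the same order, and near 1700128A07Rik (chr14:106477562-106479235) they were 80.0, 6.93, 83.1 and 9.32. These regions were picked as low in floxed against wild-type cells, so that part of the order was set in advance. At all 4, the dCD value lay near wild type and the DKO value near the floxed line.

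Lower regions also lay in introns of genes of known function. The region in H2-T24, a non-classical class I gene of the major histocompatibility complex (chr17:36014239-36018385), held 129 reads in naive wild type and 12.2 in naive floxed cells, beside 92.8 in dCD and 22.4 in DKO cells (−3.08). St6galnac1, a sialyltransferase gene (chr11:116764377-116769165), went from 177 to 18.8, beside 171 and 56.9 (−2.96). The intron of Habp4, a hyaluronan-binding protein gene (chr13:64168399-64171027), went from 57.8 to 7.19, beside 56.5 and 7.28 (−2.79). Regions near Mdm1, which encodes a centriole protein (−2.82), and Ndufs5, which encodes a subunit of respiratory complex I (−2.72), were also lower.

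Among the lower named regions, that in Vps53 departed from the order of wild type and dCD high, floxed and DKO low. In an intron of Vps53, a subunit of the GARP vesicle-tethering complex (chr11:76163001-76165115), naive wild type held 77.8 reads, against 10.5 in naive floxed, 26.8 in naive dCD and 22.3 in naive DKO cells. Formative wild type held 17.8 and formative floxed cells 16.5. The naive difference was −2.79 and the formative one −0.10, so naive wild type stood apart from every other column listed. Of the 11 regions nearest Vps53, 6 were at least 2-fold lower in naive floxed cells.

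Differences of this kind were followed into columns that hold other libraries. The formative difference between the same lines uses 4 other libraries, and naive DKO minus naive dCD sets another group without an R1 label against an R1 group. DKO cells share the MLL3 knockout of the floxed line and also lack MLL4, and dCD cells carry catalytically dead alleles of both. Line of origin and genotype therefore cannot be told apart in DKO minus dCD either. The background of these contrasts over all regions was 0.526% higher and 3.83% lower by 2-fold in the formative difference, and 1.33% higher and 2.6% lower in DKO minus dCD. Of the 8183 regions lower in naive floxed cells, 1959 (23.9%) were also at least 2-fold lower in the formative difference and 1121 (13.7%) in DKO minus dCD. Of the 1614 higher regions, 100 (6.20%) and 167 (10.3%) were also higher. The higher regions had a median of only 0.03 in the formative difference, and 52.6% of them were above 0 there. The lower regions had a formative median of −0.49, and 81.1% were below 0.

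Recurrence went up with coverage and size, but coverage was set in the 2 columns of the difference itself. A changed region could therefore pass through its high column alone. The well-covered higher regions held medians of 26.3 reads in naive wild type and 63.0 in naive floxed cells, and the lower ones 63.3 and 25.1. In well-covered regions the background was 0.376% higher and 1.3% lower in the formative difference, and 0.653% and 1.26% in DKO minus dCD. Of the 400 well-covered higher regions, 19% were higher in formative cells and 20% in DKO minus dCD. For the 1643 lower ones these shares were 26.6% and 18.3%. Of the 109 well-covered regions (0.101%) at least 4-fold lower, 79.8% recurred in formative cells and 66.97% in DKO minus dCD, and of the 18 (0.0167%) at least 4-fold higher, 66.7% and 77.8%. All 25 well-covered regions (0.0232%) at least 8-fold lower and all 3 (0.00278%) at least 8-fold higher recurred in both. A block on chromosome 13, described next, holds many of the strongest lower regions: without it and without chromosome 8, 5 of these 25 remain, and the 3 higher ones include the adjoining Elobl and 2210409E12Rik regions. Without it and without chromosome 8, 59 regions were at least 4-fold lower and well covered, of which 69.5% recurred in formative cells and 44.1% in DKO minus dCD.

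**Figure D2:**
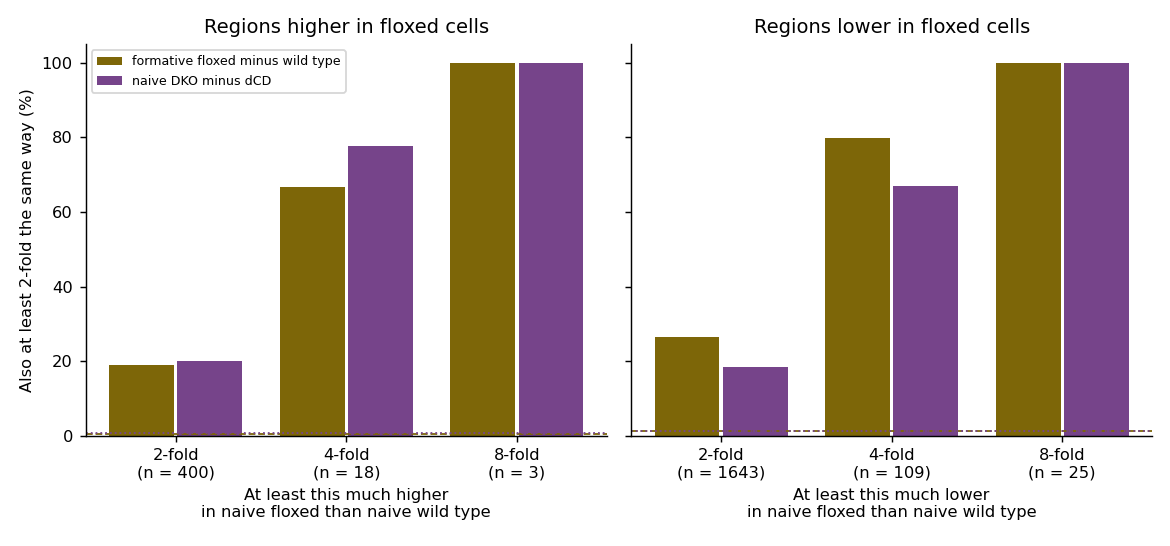
Share of well-covered regions (%) that were also at least 2-fold higher or lower in formative floxed minus wild type and in naive DKO minus dCD, by size of the naive difference, with the number of regions under each pair of bars. Dashed and dotted lines give the share over all well-covered regions, from 0.376% to 1.3%, and the bars go from 18.3% to 26.6% at 2-fold up to 100% at 8-fold.

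The strongest block of lower H3K4me1 lay on chromosome 13 at 65 to 67 Mb. Its 259 regions had a median difference of −1.54, with 170 at least 2-fold lower, 95 at least 4-fold lower and 48 at least 8-fold lower, and 2 at least 2-fold higher. These 48 are among the 92 of the whole genome. The median region of the block held 50.2 reads in naive wild type, 18.6 in naive floxed, 43.5 in naive dCD and 11.9 in naive DKO cells. Its median was −1.57 in the formative difference and −1.81 in DKO minus dCD, against −0.22 in dCD minus wild type. Wild type and dCD were thus close to each other and far from the other lines. The block holds 16 protein-coding genes, among them the zinc finger gene Zfp369, Nlrp4f, Gm10324, 2410141K09Rik, Uqcrb, a subunit of respiratory complex III, and Ptdss1, a phosphatidylserine synthase. Its regions had a median of 0.57 CpG per 100 bases.

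Elsewhere the differences along the chromosomes were weaker. Of 2329 windows of 1 Mb with at least 10 regions, 3 (0.129%) were at least 1.5-fold above the median of all regions and 23 (0.988%) as far below it. Other lower windows lay over arrays of near-identical genes, where the placing of reads among copies is uncertain. The Mup cluster of major urinary proteins (chromosome 4, 60 to 62 Mb) had a median of −0.76, −1.25 in formative cells and −1.62 in DKO minus dCD. The stretch with 146 immunoglobulin heavy-chain variable segments (chromosome 12, 114 to 116 Mb) had −0.81 in naive cells and −1.45 in DKO minus dCD. The window of the Speer4 genes (chromosome 5, 15 to 16 Mb) had −0.68, −0.74 and −1.14. At all 3 clusters DKO minus dCD was lower still, but dCD did not stand alike to wild type. Naive dCD minus wild type was 0.53 at the Speer4 window, −0.09 at the Mup cluster and −0.44 at the heavy-chain segments. In the Speer4 window the median region held 20.9 reads in naive DKO and 17.7 in naive floxed cells.

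Other windows did not lie over such arrays. On chromosome 4 at 15 to 16 Mb, over Tmem64, the calcium-binding protein gene Calb1 and the DNA repair gene Nbn, the median was −1.13 in naive cells, −0.37 in formative cells and −0.18 in DKO minus dCD. There naive wild type held 37.8 reads per region, against 18.6 in naive floxed, 23.5 in naive dCD and 21.9 in naive DKO cells, and dCD minus wild type was −0.88. Naive wild type was the high column, as at Vps53. The window of the glutamate receptor gene Grid1 (chromosome 14, 35 to 36 Mb) had −1.16, with −0.86 in formative cells, −0.75 in DKO minus dCD and −0.82 in dCD minus wild type. The window of Fshr, the receptor of follicle-stimulating hormone (chromosome 17, 89 to 90 Mb), had −0.92. Lower windows with no protein-coding gene lay on chromosome 12 (63 to 64 Mb, −0.81) and chromosome 14 (107 to 108 Mb, −0.66, and −1.64 in formative cells).

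Of the 3 higher windows, only that at the end of Y (90 to 91 Mb, 16 regions, 1.33) was also high in formative cells (1.84) and in DKO minus dCD (1.59). The window of Sema5a, a semaphorin gene, and Sdc2, which encodes a heparan sulphate proteoglycan (chromosome 15, 32 to 33 Mb), was at 0.64 in naive and 0.09 in formative cells. A window on chromosome 18 (55 to 56 Mb) was at 0.58 and −0.08.

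Chromosome 8 was lower along its whole length. Its median was −0.45 over 11347 regions, while those of the other 18 autosomes ran from −0.08 to 0.06, and X stood at 0.06. Of its 124 windows, 122 were below the median of all regions, from −0.93 to 0.10, and only 32 of the 2122 windows of the other autosomes were at or under chromosome 8's median window of −0.44. The chromosome held 1501 of the regions at least 2-fold lower, 13.2% of its own regions and 18.3% of all such regions. Its median relative to the other autosomes was −0.44 in naive cells and −0.28 in the formative difference, against 0.05 in DKO minus dCD. Against naive wild type, a column that these contrasts share, chromosome 8 stood at −0.57 in dCD cells, with the other autosomes at −0.27, and at −0.51 in DKO cells, with the others at −0.28. Relative to the other autosomes these were −0.30 and −0.23. DKO minus the floxed line was 0.00 on chromosome 8 and −0.19 on the others, so there the chromosome stood 0.19 above them. The number of copies of the chromosome in each line was not measured, and its part was not tested.

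Among the 11 called windows of chromosome 8 were those of the beta-defensins (19 to 20 Mb, −0.69), of the alpha-defensins (21 to 22 Mb, −0.70), of Nrg1, the neuregulin gene (32 to 33 Mb, −0.68), and of Smad1 and the chromatin remodeller Smarca5 (79 to 81 Mb, −0.77). The last of these held 94 of 281 regions at least 2-fold lower. The others lay over Zfp703 (26 to 27 Mb, −0.66), Sgcz (37 to 38 Mb, −0.71), Tusc3 and the scavenger receptor gene Msr1 (39 to 40 Mb, −0.86) and the mineralocorticoid receptor gene Nr3c2 (77 to 78 Mb, −0.73). Another 2 windows held no protein-coding gene (98 to 99 Mb, −0.93, and 100 to 101 Mb, −0.91), and those were lower in DKO minus dCD as well (−1.08 and −1.16).

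**Figure D3:**
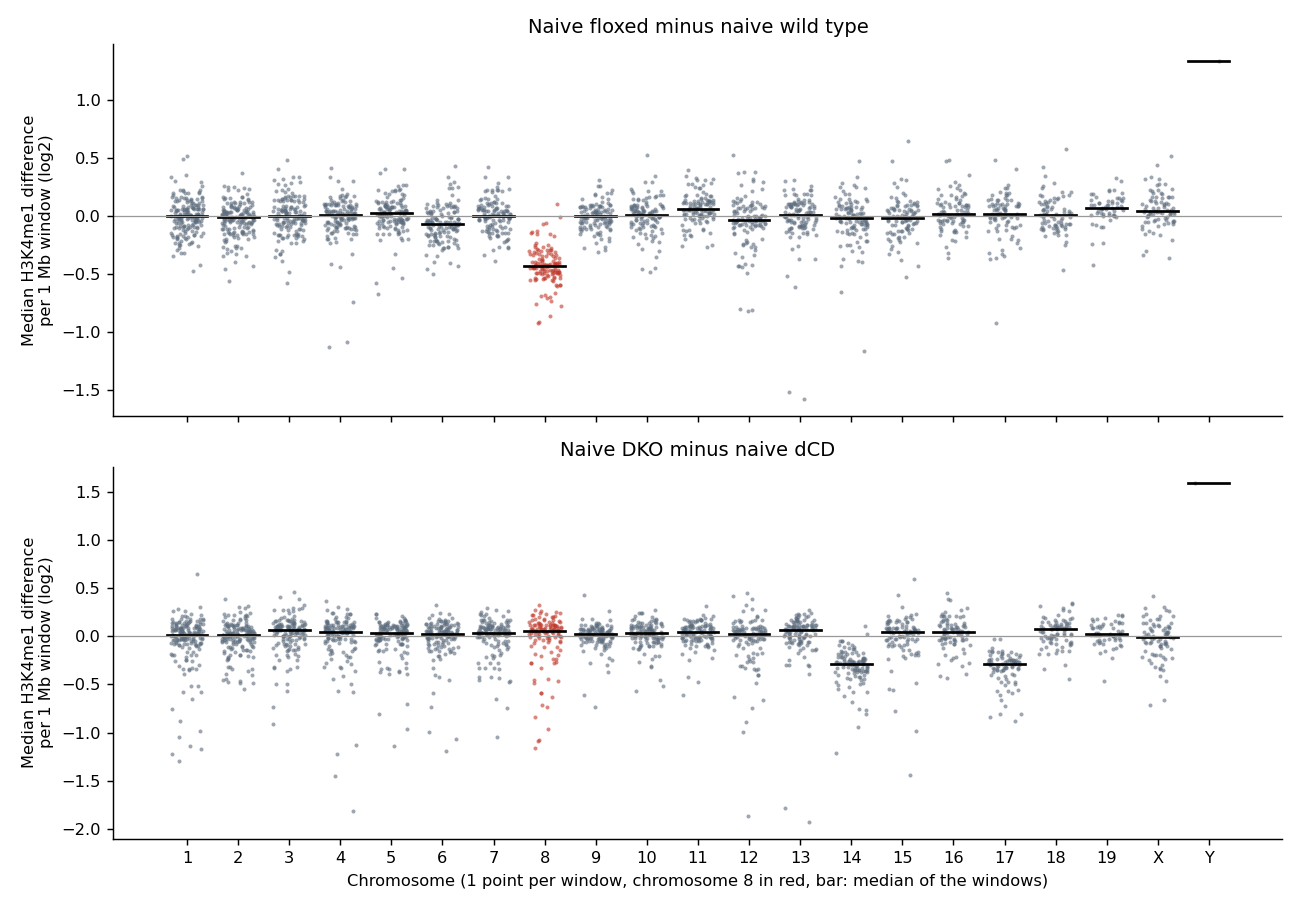
Median H3K4me1 difference (log2) of each 1 Mb window by chromosome, for naive floxed minus wild type (top) and naive DKO minus dCD (bottom), with a bar at the median window. Chromosome 8, in red, has its median window at −0.44 in the top panel, and its regions have a median of 0.07 in the bottom one. There chromosomes 14 and 17 are low, at −0.28 and −0.29. The lowest points of chromosome 13 belong to the block at 65 to 67 Mb and recur in both panels.

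Over region classes, the mark was slightly higher in the floxed line where it was strong. Classes by depth were set in naive dCD cells, which enter neither side of the difference. Regions under 16 reads there had a median of −0.10, those of 16 to 32 reads −0.13 and those of at least 256 reads 0.12. With each column centred the first and the last of these were 0.04 and 0.26, so the sign of the first depends on the scaling. The quartiles were at −0.49 and 0.28 in the first of these and at −0.02 and 0.22 in the last. Width ran a similar way, from −0.10 under 1 kb and −0.11 at 1 to 2 kb to 0.10 at 10 kb or more, and wide regions also hold more reads. The spread was 0.68 (SD over regions) in the narrowest class and 0.24 in the widest. Regions within 1 kb of a start site had a median of 0.14 and distal ones −0.04, or 0.28 and 0.09 with each column centred, so the sign of the distal median depends on the scaling and the order does not. Within the depth classes of naive dCD cells the gap between promoter and distal regions was 0.05 under 16 reads, 0.17 at 16 to 32, 0.21 at 32 to 64, 0.12 at 64 to 128, 0.05 at 128 to 256 and 0.00 at 256 reads or more.

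Promoter regions were less often far apart: 0.534% were at least 2-fold higher and 1.27% lower, against 0.884% and 4.57% of distal regions. Regions over 500 kb from a start site were the most variable by distance, with 3.10% higher and 8.98% lower, and had a median of 20.7 reads. Regions also differed by their behaviour in the naive to formative transition, read in dCD cells. Of the 2556 that were at least 2-fold higher in formative dCD cells, 4.77% were higher in naive floxed cells and 5.83% lower. Of the 4611 that were at least 2-fold lower there, 0.998% were higher and 8.63% lower. The first class had a median of 0.08 and the second of −0.13, but they also differ in depth, at 14.4 and 28.1 reads.

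**Figure D4:**
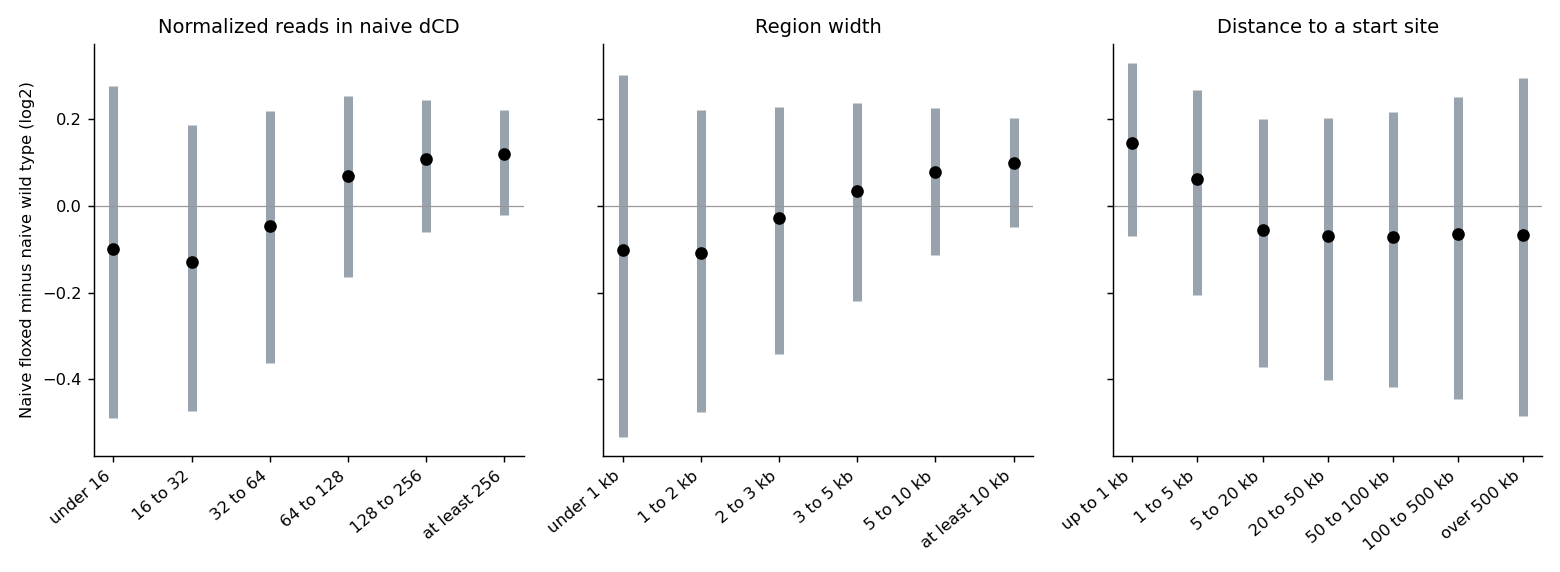
Median (point) and quartiles (bar) of the naive floxed minus wild-type difference (log2) by normalized reads in naive dCD cells, by region width and by distance to a start site. Medians run from −0.13 at 16 to 32 reads to 0.12 at 256 reads or more, and the bars shorten with depth and width, from −0.49 to 0.28 under 16 reads to −0.02 to 0.22 at 256 or more.

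Sequence content of the regions that differed was described as well. Higher regions had a median of 0.72 CpG per 100 bases and lower regions 1.27, against 1.17 in the rest. Regions with at least 50% of their bases masked as repeats made up 10.7% of the higher and 14.8% of the lower regions, and 5.88% of the rest. With only well-covered regions these shares were 10.3%, 12.8% and 3.56%, and the CpG medians 0.97, 1.29 and 1.26. The higher regions held a median of 10.1 reads in naive wild type and 24.6 in naive floxed cells, so most of them rest on few reads.

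As a mean over all regions nearest a gene and within 50 kb of it, 358 of 21535 loci (1.66%) were at least 1.5-fold higher in the floxed line and 1152 (5.35%) lower, but with each column centred 817 were higher and 649 lower, so which direction held more loci depends on the scaling. Among loci of at least 3 regions, the highest were 2210409E12Rik (1.45) and Elobl (1.31), which share the site described above, and Il11ra2, a copy of the interleukin-11 receptor gene (1.29). They were followed by Sdc2 (1.28), Synb, the fusogen syncytin-B of the placenta (1.26), and G530011O06Rik at the end of X (1.21). Erdr1 (1.198), Sema5a (1.14, but 0.49 over its regions within 20 kb), 4930578G10Rik (1.09) and Rptn, the gene of the cornified envelope protein repetin (1.05), completed the 10. Over all loci 0.692% were higher in the formative difference and 1.6% in DKO minus dCD. In formative cells Synb was at 1.33, G530011O06Rik at 1.498 and Erdr1 at 1.80, whereas Sdc2 was at 0.11 and Sema5a at −0.07. Summed over its 6 regions, Synb went from 170 reads in naive wild type to 409 in naive floxed cells, with 138 in dCD and 211 in DKO cells.

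The lowest loci were Gm10324 (−2.82), 2410141K09Rik (−2.46), 4921507P07Rik (−2.40), Gm2083 in the Mup cluster (−2.27) and H2-T24 (−2.24). Next were 1700128A07Rik (−1.86), Gm5622 (−1.84), Naip6 (−1.78) and Naip7 (−1.77), which encode sensors of bacterial proteins in a tandem gene array, and Cd209d, a C-type lectin gene on chromosome 8 (−1.66, or −1.21 from the median of its chromosome). All 10 were also at least 1.5-fold lower in the formative difference, where 5.28% of all loci were, from −3.12 at Gm10324 to −1.32 at H2-T24. In DKO minus dCD, with 3.37% of all loci lower, they ran from −3.23 to −1.03. Naip7 held 661 reads over 8 regions in naive wild type, 231 in naive floxed, 631 in naive dCD and 222 in naive DKO cells.

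The genes of pluripotency, lineage choice and H3K4 methylation stood near the middle of the range. Of 238 genes in 14 lists, 230 had a locus, and 1 of these was at least 1.5-fold higher and 5 lower (0.435% and 2.17%, against 1.66% and 5.35% of all loci). Loci with a single region pass more often, and among all loci of at least 3 regions the shares were 0.576% and 4.11%. None of the naive pluripotency (24), core pluripotency (12), formative and primed (22), H3K4 methylation (19), H3K27 acetylation (15), trophoblast (12) or fibroblast (15) loci passed 1.5-fold in either direction. Their medians lay between −0.07 and 0.13, beside −0.03 over all loci. The fibroblast markers, listed because feeder cells could be present, had a median of −0.07. Among naive factors Klf4 was at −0.02, Nr5a2 at −0.05, Prdm14 at 0.04 and Tbx3 at 0.32, and Klf2 on chromosome 8 at −0.36, above that chromosome's median. Of the 22 formative and primed loci, 12 were above 0, beside 9700 of all 21535 loci, and the list median was 0.04. Fgf5 was at −0.16, Otx2 at −0.21, Pou3f1 at −0.04 and Dnmt3b, a de novo DNA methyltransferase gene, at −0.45, whereas Sall2 was at 0.44, Sox11 at 0.23 and Sox3 at 0.18.

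The loci of the enzymes themselves differed little. Kmt2c was at −0.06 over 11 regions and Kmt2d at −0.13 over 4, or at 0.07 and 0.00 with each column centred, so their signs depend on the scaling. H3K4me1 around a gene does not show whether its product is made, and the deletion in Kmt2c was not located, so these values are no check of the genotype. Partners of the complex were at −0.30 (Ncoa6 and Paxip1), 0.12 (Pagr1a) and 0.08 (Kdm6a, the H3K27 demethylase subunit). The related methyltransferase genes were at 0.08 (Kmt2a), −0.25 (Kmt2b), 0.01 (Setd1a) and 0.44 (Setd1b).

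None of the 6 list loci past 1.5-fold in naive cells passed it in the formative difference. Over the whole genome, 427 of the 1152 lower loci and 30 of the 358 higher ones did, so most did not. Whether the states differ was not tested. Kdr, the receptor of VEGF in blood and vessel progenitors, was at −0.71 over 16 regions, against −0.03 in the formative difference and 0.16 in DKO minus dCD. All 16 regions were lower, for example that at chr5:76011239-76014996, with 71.6 reads in naive wild type, 36.1 in naive floxed, 65.7 in formative wild type and 53.5 in formative floxed cells. Meis2, a homeodomain partner of HOX proteins, was at −0.70 over 14 regions and at −0.08 in formative cells. Its region at chr2:116038993-116041312 held 53.9 and 24.2 reads in naive and 40.3 and 39.5 in formative cells, wild type first. Impact, an imprinted inhibitor of the GCN2 kinase, was at −0.65 and in formative cells at 0.18. Col4a1, a basement membrane collagen gene on chromosome 8, was at −0.62, or −0.17 from the median of its chromosome. Usp17la, with 1 region, was at −0.78, and at −0.50 in formative cells. Hprt, the purine salvage gene on X, was the higher one (0.62, and 0.10 in formative cells).

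With each column centred, Kdr, Meis2, Impact and Col4a1 moved to between −0.57 and −0.48, inside the 1.5-fold limit, and Usp17la was the only lower one left. Hdac3, Igf2, Tcstv1 and Zscan4f then joined Hprt as higher, between 0.61 and 0.68.

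**Figure D5:**
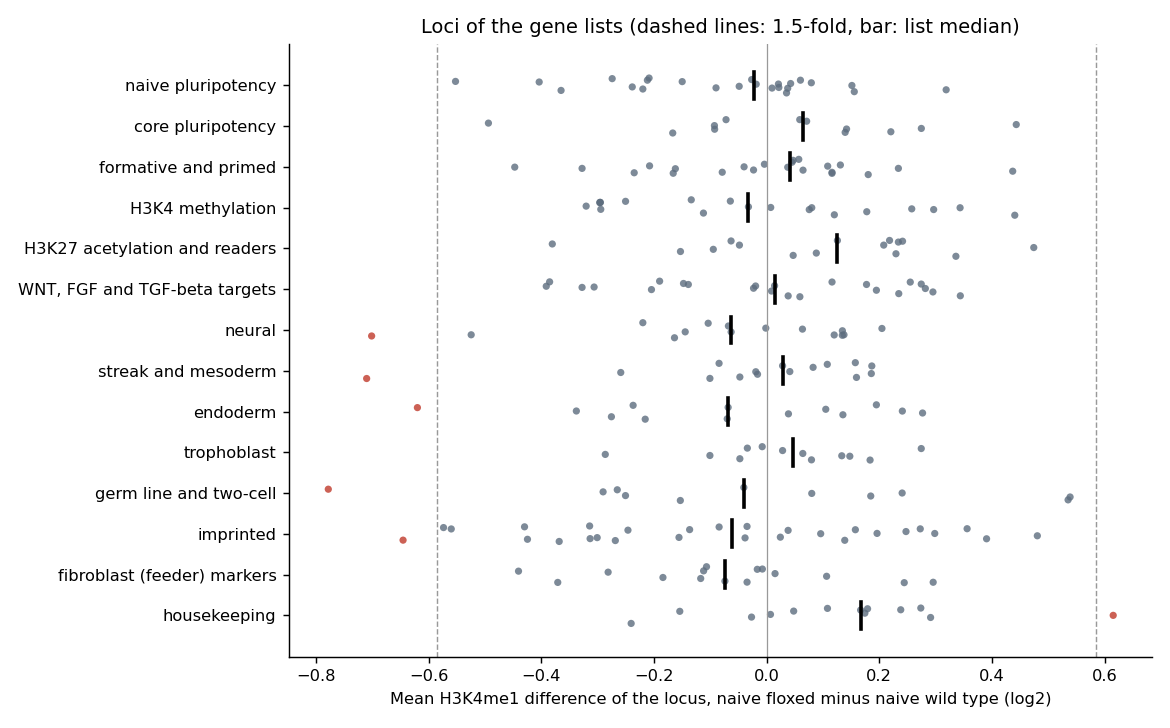
Mean H3K4me1 difference (log2) of each locus in the 14 gene lists, with the list median as a bar and dashed lines at 1.5-fold. The 6 loci past the lines are in red, with Hprt at 0.62 on the right and Usp17la, Kdr, Meis2, Impact and Col4a1 on the left.

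Of 11 gene families named by their prefix, some had larger shares past 1.5-fold than the 1.66% higher and 5.35% lower of all loci, and others did not. Of 363 olfactory receptor loci, 80 (22.04%) were at least 1.5-fold lower and 17 (4.68%) higher, with a median of −0.15. Of 138 vomeronasal receptor loci, 29 (21.01%) were lower and 9 (6.52%) higher. These chemosensory genes are silent in stem cells and sit in large arrays, and 215 of the olfactory and 75 of the vomeronasal loci had a single region. Over the whole genome, 10.2% of single-region loci were lower and 6.15% higher, against 4.11% and 0.576% of loci with at least 3 regions. Of the lower olfactory loci 40, and of the lower vomeronasal loci 22, were lower in the formative difference too, beside 427 of the 1152 lower loci of the whole genome. With each column centred the counts were 54 lower and 38 higher for olfactory loci, and 24 and 13 for vomeronasal loci, whose median turned from −0.07 to 0.07.

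Of 36 H2 loci of the major histocompatibility complex, 4 (11.1%, beside 5.35% of all loci) were lower, H2-T24, H2-T23 (−1.27), H2-Bl (−1.21) and H2-T9 (−0.65), all of them non-classical class I genes. These 4 were also lower in formative cells, at −1.32, −0.97, −1.80 and −0.82, beside 427 of the 1152 lower loci of the whole genome. H2-T3 (0.76) and H2-Ea-ps (0.97) were higher. With each column centred, 3 H2 loci were lower and 3 higher. Of 39 serpin loci, which encode protease inhibitors, 7 (17.9%, beside 5.35% of all loci) were lower, led by Serpina11 (−1.16) and Serpina5 (−0.93), and none higher, and 10 of the 39 had a single region. With each column centred 6 were lower. Serpina5 was at −2.03 in formative cells and Serpina11 at 0.03.

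Histone genes went the other way. Of 59 loci, 50 were above 0, beside 9700 of the 21535 loci of the whole genome. At least 1.5-fold higher were 6 (10.2%, beside 1.66% of all loci) and none was lower, and 27 of the 59 had a single region. The family's median was 0.26, beside −0.03 over all loci. With each column centred these medians were 0.40 and 0.11, and 13 histone loci were higher, and 15 with quantile scaling. The 6 were Hist1h2af (0.91), Hist3h2ba (0.81), Hist2h2aa1 (0.73), Hist1h3d (0.70), Hist1h4a (0.63) and Hist1h4k (0.62). In the formative difference the family's median was 0.11, and 2 of the 6, Hist3h2ba and Hist2h2aa1 (both 0.62), stayed past 1.5-fold. Of the 358 higher loci of the whole genome, 30 did. Of 45 keratin loci, 14 of them with a single region, 4 (8.89%, beside 1.66% of all loci) were higher, Krt75 (0.71), Krt20 (0.63), Krt79 (0.63) and Krt74 (0.62). None of these 4 passed 1.5-fold in formative cells, beside 30 of the 358 higher loci of the whole genome. With each column centred 9 keratin loci were higher, and 11 with quantile scaling. Over all 21535 loci these settings gave 817 and 839 higher.

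The other families had shares near or below those of all loci (1.66% higher and 5.35% lower). Of 383 zinc finger (Zfp) loci, 5 (1.31%) were higher and 7 (1.83%) lower, with a median of −0.03, but 16 were higher and 2 lower with each column centred, when the median was 0.11. Of 88 ribosomal protein loci, 1 (1.14%) was higher and 2 (2.27%) lower, among them Rpl13 on chromosome 8 (−0.74, or −0.30 from the median of its chromosome). Of 55 clustered protocadherin loci 1 was higher and 1 lower, of 31 Hox loci none was higher and 1 lower, and of 43 collagen loci none was higher and 1, Col4a1, lower.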

How the data were processed

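The processed table holds H3K4me1 levels for the regions the authors called, 1 deposited log2 value per group, with both libraries of a group in 1 column per the labels' descriptions. Columns with the abbreviation CKO stand for the floxed line, per the sample descriptions in the labels. Per the submitters' processing notes, Trim Galore, Bowtie2, SEACR, DiffBind, deepTools and mm10 were used. The sources used here do not state versions, roles, the scaling between groups or whether the yeast spike-in entered it. The levels followed the log2 of 1 plus a constant times reads over the square of the width, which gave normalized reads (offsets 22.2 in both states). Only levels of the same region were compared. Another 14 columns of levels were not used, 2 regions lacked levels and 271 gene names altered to dates were left unnamed.

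Differences were computed with Python 3.11.15, numpy 2.4.6 and pandas 2.3.3, and sequence features with pysam 0.24.0 on GRCm38. Scripts were tested on simulated data. Regions were counted at 2-fold, loci (regions within 50 kb of the nearest gene) and 1 Mb windows (at least 10 regions, from the median of all regions) at 1.5-fold. Named were the 10 highest and 10 lowest regions of at least 32 reads, 1 per gene, and loci of at least 3 regions, list members past 1.5-fold, Kmt2c and Kmt2d, and windows past 1.5-fold. Other members of the lists are given as examples, chosen after their values were seen. The design planned a model per library only if the table gave 1 value per library, which it did not. The comparison, the members and the gene lists were chosen with earlier results of these data known. Depth limits single regions, and IgG and MLL4 libraries were not analysed here.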

Additional observations from a re-analysis of the deposited data

How the results depend on the processing

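No paired analysis was possible because the table gives 1 pooled column per group, and for the same reason no library could be left out in turn. The direction with more loci past 1.5-fold turned under centring, as did the sign of the median of all regions and of Kmt2c and Kmt2d (0.07 and 0.00). Kmt2c also turned with quantile scaling (0.03) and at 32 reads or more (0.05). Regions at least 2-fold higher were 2885 with columns centred, 3278 with quantile scaling, 400 at 32 reads or more, 10155 at 1.5-fold and 66 at 4-fold. Lower regions were 5371 centred, 1643 at 32 reads or more, 26760 at 1.5-fold and 494 at 4-fold. The lower share was 65.1% centred, 72.4% with quantile scaling, 80.4% at 32 reads or more and 84.8% as a ratio of reads plus 1. Chromosome 8 relative to other autosomes was −0.49 with quantile scaling. Windows past 1.5-fold were 40 with quantile scaling and 17 at 32 reads or more, against 26. The promoter minus distal gap was 0.21 with quantile scaling, 0.12 at 32 reads or more and 0.18 without chromosomes 8, 14, 17, X and Y. The gap of deep (at least 128 reads) to shallow (under 16) regions was 0.26 with quantile scaling and 0.20 without those chromosomes. List loci higher were 5 centred, 6 with quantile scaling, 2 within 20 kb, 2 at 32 reads or more and 0 from the chromosome median, and lower 1 centred and 2 at 32 reads or more. All loci higher were 817 centred and 839 with quantile scaling, and lower 649 centred and 522 at 32 reads or more. Recurrence in formative cells was 19% of higher regions at 32 reads or more, and of lower ones 19.3% with quantile scaling and 26.6% at 32 reads or more. Recurrence in DKO minus dCD was 8.49% of higher regions centred, 7.11% with quantile scaling and 20% at 32 reads or more, and of lower ones 17.4% centred and 18.3% at 32 reads or more. Leaving out chromosome 8 and the chromosome 13 block, chosen after seeing the data, gave 6.22% and 23.7% in formative cells. The cause of these shifts was not tested, apart from the fewer regions that a read minimum or another size leaves. All 20 named regions kept their direction and 2-fold size under centring, quantile scaling and the read ratio. Of the named loci, Kdr, Meis2 and Impact fell inside 1.5-fold at 32 reads or more (−0.40, −0.31 and −0.30) and so did Hprt (0.44). In all, 151 settings of named loci kept their side of 1.5-fold and 13 did not.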

Other observations

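The authors' deposited table also carries a log2 fold of H3K27ac, naive DKO minus naive wild type, made from libraries outside this series. At the 1614 regions higher in naive floxed cells its median was 0.53, and at the 8183 lower regions −0.38, against 0.04 over all regions. In the authors' deposited table the medians were 2.78 at the 18 well-covered regions at least 4-fold higher and −2.04 at the 109 at least 4-fold lower, and 88.9% and 91.7% of them had the sign of the H3K4me1 difference. In the authors' deposited table that share was 58.6% at all higher and 58.2% at all lower regions, and 51.2% over every region. Of the 109 regions, 59 lay outside chromosome 8 and the chromosome 13 block, and the share was not computed for those alone. The 18 higher ones include the adjoining Elobl and 2210409E12Rik regions. At the Elobl region the fold of the authors' deposited table was 3.84, and at the Gm10324 region −5.03. Not every named region had that sign. At the Gphn region the fold of the authors' deposited table was −1.78, at the Habp4 region 0.86 and at the H2-T24 region 0.35. The H3K4me1 differences there were 2.21, −2.79 and −3.08.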
